A study of Mus musculus with 24 samples.

Results

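The genes described here encode the proteins of the cytosolic ribosome, and they were measured by RNA sequencing in cells from mouse malignant pleural effusions and pleural tumors. They were chosen by name: rows called Rpl or Rps with a number and at most 1 of the letters a, x, y or l, plus Rpsa, Rplp0, Rplp1 and Rplp2, with pseudogene names left out, that reached 1 FPKM or more in 3 or more of the 24 libraries. FPKM is a fragment count divided by gene length and by a depth factor of the library. The name fitted 83 of the 54505 rows and 80 of them reached the minimum, 48 named for the large subunit and 32 for the small one. The other three were Rpl39l (highest FPKM 0.505), Rpl32l (0.403) and Rpl10l (0 in every library). Just inside the limit lay Rpl3l, at an FPKM of at least 1 in 3 libraries and at most 1.16. The annotation calls 2 of the 80, Rps4l and Rpl6l, pseudogenes.

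The effusions were raised in C57BL/6 mice by Lewis lung carcinoma (LLC), a line grown from a mouse lung tumor. Treatment on day 11 went into the pleural space and was PBS, a nanoparticle loaded with 1 µg of cGAMP (LNP-CDN, which activates STING), 30 µg of the anti-PD-L1 antibody 10F.9G2, or both together. On day 13 the cells of the pleural fluid and of enzymatically digested tumors were collected after lysis of red blood cells, so that 4 treatments in 2 tissues made 8 groups with 3 libraries each. It is not stated whether fluid and tumor libraries come from the same mice (3 per treatment), and p-values measure the spread between these libraries.

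A ribosome is built from ribosomal RNA and a fixed set of proteins, most of them present in a single copy, and cells make these proteins in matching amounts. Their messenger RNAs are among the most abundant of a growing cell. Nearly all begin with a C followed by a run of pyrimidines, the terminal oligopyrimidine or TOP motif, through which mTORC1 and the binding protein Larp1 control their translation and stability. In mice and other mammals Myc raises the transcription of ribosomal protein genes and of ribosome assembly factors.

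The start regions of 8 members are shown because such a run of pyrimidines is common in the family. Each window holds the 10 bases before a RefSeq transcription start and the first 20 of the transcript in GRCm38.p6, and capitals mark its longest unbroken run of C and T.
Rpl35: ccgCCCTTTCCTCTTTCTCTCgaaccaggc
Rpl15: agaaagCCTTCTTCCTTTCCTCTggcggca
Rpl28: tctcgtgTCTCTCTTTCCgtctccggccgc
Rps6: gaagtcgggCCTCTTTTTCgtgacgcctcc
Rpl38: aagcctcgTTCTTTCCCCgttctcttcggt
Rps27: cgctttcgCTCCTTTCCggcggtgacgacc
Rps27l: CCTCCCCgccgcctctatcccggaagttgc
Rpl3l: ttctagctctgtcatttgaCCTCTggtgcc
These lie on the minus strand at chr2:39005112-39005141 (Rpl35), chr14:18270967-18270996 (Rpl15), chr4:86857348-86857377 (Rps6) and chr3:90213629-90213658 (Rps27). On the plus strand they lie at chr7:4792955-4792984 (Rpl28), chr11:114668570-114668599 (Rpl38), chr9:66946076-66946105 (Rps27l) and chr17:24727816-24727845 (Rpl3l). The run was 18 bases long in Rpl35 and 17 in Rpl15, against 7 in Rps27l and 5 in Rpl3l, which are paralogs of Rps27 and Rpl3. In Rps27l the marked run lay wholly before the start and in Rpl3l wholly after it, so neither begins the transcript.

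RefSeq promoter windows were at hand for 58 of the 80 members, out of 27025 gene symbols. At least 10 consecutive bases of C or T occurred on the gene's strand within 50 bases of a start in 42 of the 58 members (72.4%) and in 20.6% of all symbols. On the opposite strand the same run occurred in 12.1% of the members and in 21.2% of all symbols. The letters CTTTCC, which can lie inside such a run, were found on the gene's strand of 18 members (31.03%) and of 5.43% of all symbols. On the opposite strand CTTTCC was found in 1 member (1.72%) and in 5.12% of all symbols. The letters CCGGAAGT were found on either strand, within 250 bases before and 50 after a start, in 12 members (20.7%) and 4.31% of all symbols.

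The members differed widely in level. Rplp1, an acidic stalk protein, had the highest mean over the 24 libraries at 994 FPKM, followed by Rps2 (867), Rplp0 (837), Rps15 (729) and Rpl17 (718). The lowest means were those of Rpl3l (0.474), Rpl6l (1.53), Rpl24 (1.70), Rps10 (3.41) and Rps4l (4.90). The sequence of Rps10 and Rpl24 is not theirs alone, and the same is true of members at high levels. Of the 31-base words in its transcript, 96.8% for Rps10 and 82.2% for Rpl24 also occur in transcripts of other genes. This share was 99.0% for Rpl35 (mean 187 FPKM), 98.7% for Rps27 (192) and 0% for Rpl3l. The part of shared sequence in the low values was not tested. How reads with several matches were counted is not given in the sources used here. Over the family the median share was 63.4%, with 59 of the 80 members above 50% and 4 below 10%, so reads may be split between most members and their copies. Comparisons below are of 1 gene with itself across libraries, where the shared sequence is constant. Reads from the copies may still differ between libraries, and their effect was not tested. Rows named as pseudogenes of the family, 298 in number, held between 0.00513% and 0.0182% of reads per library.

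The 24 libraries held 14580156 to 26850861 reads recovered from the FPKM values. The leukocyte gene Ptprc lay between 36.7 and 71.6 FPKM in fluid and between 3.11 and 6.07 in tumors. The 10 epithelial and carcinoma markers summed to 189.5 to 263 FPKM in tumors, mostly from Krt8 and Krt18, while the epithelial adhesion gene Epcam was at most 0.690 there. Y-linked Ddx3y was between 21.6 and 23.6 FPKM in the fluid libraries with anti-PD-L1 and at most 0.0283 in the other fluid libraries. In tumors Ddx3y was between 3.27 and 3.44 with anti-PD-L1, 3.55 in 1 PBS library and at most 0.0205 in the other libraries. The fluid libraries of the combination, which also received the antibody, had at most 0.0111. Sex and treatment therefore cannot be told apart where anti-PD-L1 alone is compared in fluid, with PBS or with the combination. The same holds in tumors against the combination, and in part against PBS, where Ddx3y was present in 1 library. It also holds for the effect of anti-PD-L1 compared between tissues, which uses the same fluid libraries. The PBS tumor library with Ddx3y also enters LNP-CDN and the combination against PBS in tumors, and PBS tumors against PBS fluid. That library enters the treatment effects compared between tissues as well, so sex differed in part in all of these.

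The family took up a larger part of the messenger RNA in tumors than in fluid, and in fluid its part was smaller after LNP-CDN and after the combination. Of all reads, 2.75%, 2.55% and 3.07% fell on the 80 genes in the 3 fluid libraries with PBS. With LNP-CDN these shares were 1.91%, 1.68% and 1.77%, with the combination 1.55%, 1.54% and 1.89%, and with anti-PD-L1 2.23%, 2.75% and 2.69%. Every fluid library with LNP-CDN, alone or combined, lay below every fluid library without it. In tumors the shares were 5.94%, 5.53% and 4.79% with PBS, 5.36%, 5.81% and 5.01% with LNP-CDN, 4.67%, 4.34% and 4.95% with anti-PD-L1, and 5.18%, 5.13% and 5.17% with the combination. The 12 tumor libraries all lay above the 12 fluid libraries, and among the 4 tumor groups the ranges met or overlapped except that anti-PD-L1 lay below LNP-CDN and the combination. By group the order was combination in fluid (1.66% ± 0.195, SD, n = 3), LNP-CDN in fluid (1.78% ± 0.113), anti-PD-L1 in fluid (2.56% ± 0.285) and PBS in fluid (2.79% ± 0.265), where the first 2 and the next 2 overlap. Above them came anti-PD-L1 (4.65% ± 0.309), the combination (5.16% ± 0.0293), LNP-CDN (5.39% ± 0.400) and PBS (5.42% ± 0.579) in tumors. The 77 genes for mitochondrial ribosomal proteins (Mrpl and Mrps) took between 0.177% and 0.201% of reads in the 12 fluid libraries and between 0.197% and 0.270% in the tumors. In bulk samples fewer cells of a type and less RNA per cell cannot be told apart.

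**Figure D1:**
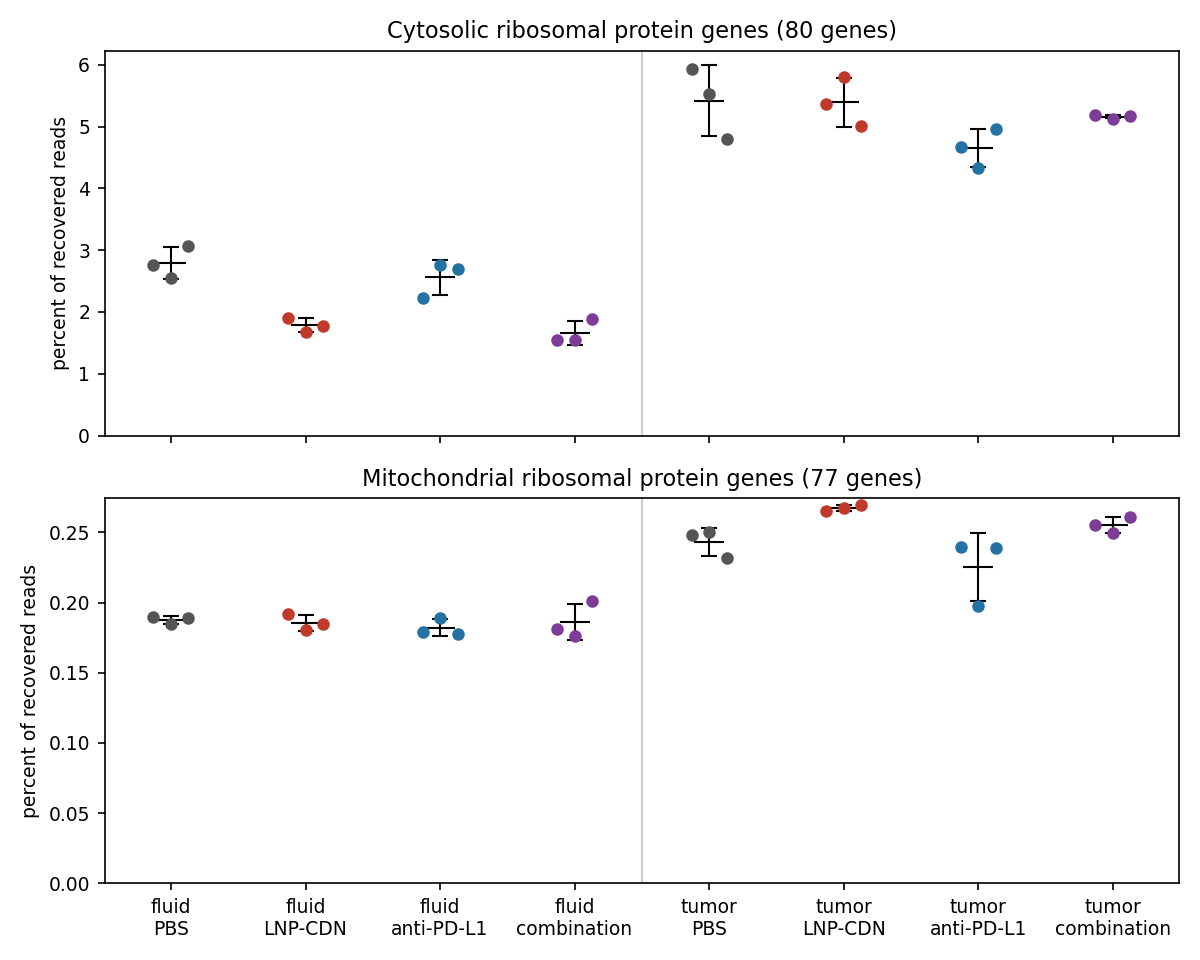
Percent of recovered reads (y axis, from 0) on the 80 cytosolic (top) and 77 mitochondrial (bottom) ribosomal protein genes in each tissue and treatment (x axis). Points are libraries and black lines are the mean ± SD of 3. The fluid groups with LNP-CDN and with the combination sit at means of 1.78% and 1.66% against 2.79% with PBS in the top panel, and the bottom panel shows no such step.

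LNP-CDN was compared with PBS in fluid to see what the STING agonist does to effusion cells. After LNP-CDN, 62 of the 79 members tested fell and none rose, where 26% of the 13518 genes tested passed, 12.3% lower and 13.7% higher (limma on log2(FPKM + 1), Benjamini-Hochberg adjusted p under 0.05 over all genes). Rpl3l did not pass the filter on low values in fluid. When 1 of the 6 libraries compared was left out, 42 to 60 members passed. The members' median log2 change was -0.54, a fall of 31.1%, against 0.00 for all genes tested. The fall ran across both subunits, with 24 of 32 small-subunit members lower at a median of -0.56 and 38 of 47 large-subunit members lower at a median of -0.53. The middle range of the members was narrow, from -0.65 to -0.44 between the quartiles.

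Rpl3 (chromosome 15, 80077791 to 80091868, minus strand), a protein at the peptidyl transferase centre, and Rpl10a had the largest falls. Rpl3 lay at 282, 274 and 317 FPKM with PBS and at 161, 130.2 and 163 with LNP-CDN. The groups were far apart, with a log2 change of -0.94 ± 0.12 (SE) and an adjusted p of 0.000389. Rpl10a (chromosome 17, 28328471 to 28331033), a large-subunit protein of the exit side, lay at 139, 125 and 159 FPKM with PBS and at 79.4, 68.1 and 71.7 with LNP-CDN. This change of -0.94 ± 0.12 had an adjusted p of 0.000381. Rpl12, which with Rplp0 forms the base of the stalk where elongation factors bind, lay at 114, 114 and 126 FPKM with PBS and at 65.7, 51.9 and 69.7 with LNP-CDN (-0.92 ± 0.14). Rplp0 itself went from 698, 662 and 795 FPKM to 425, 381 and 430.0 (-0.80 ± 0.12). None of the 3 LNP-CDN libraries reached a PBS library for these genes. The other stalk proteins fell less far, Rplp1 by 0.53 on the log2 scale and Rplp2 by 0.51. The call of Rplp1 was lost without the filter on low values and without PBS replicate 1 or 3 or LNP-CDN replicate 1 or 2. That of Rplp2 was lost without the filter on low values, with a replicate block, and in each of the 6 fits that left out 1 of the libraries compared.

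In the small subunit Rpsa, also known as the laminin receptor, lay at 305, 278 and 335 FPKM with PBS and at 177, 157 and 188 with LNP-CDN. Its log2 change was -0.81 ± 0.11 with an adjusted p of 0.000777. Rps25 (-0.79 ± 0.10), which is known for its part in initiation from internal ribosome entry sites, and Rps2 (-0.75 ± 0.16), at the messenger entry channel, followed it. Rps6, the substrate of the S6 kinases downstream of mTORC1, lay at 312, 291 and 380.5 FPKM with PBS and at 231, 221 and 217 with LNP-CDN. That fall of 0.55 on the log2 scale was near the family median and had an adjusted p of 0.0118. Rps27a, made as a fusion with ubiquitin, fell by 0.69 on the log2 scale, and Rps3, a protein of the messenger entry site, by 0.48. Rpl5 and Rpl11, which as free proteins hold back the p53 inhibitor Mdm2, fell by 0.54 and 0.47. The 12 p53 target genes tested gave 2 higher and none lower.

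**Figure D2:**
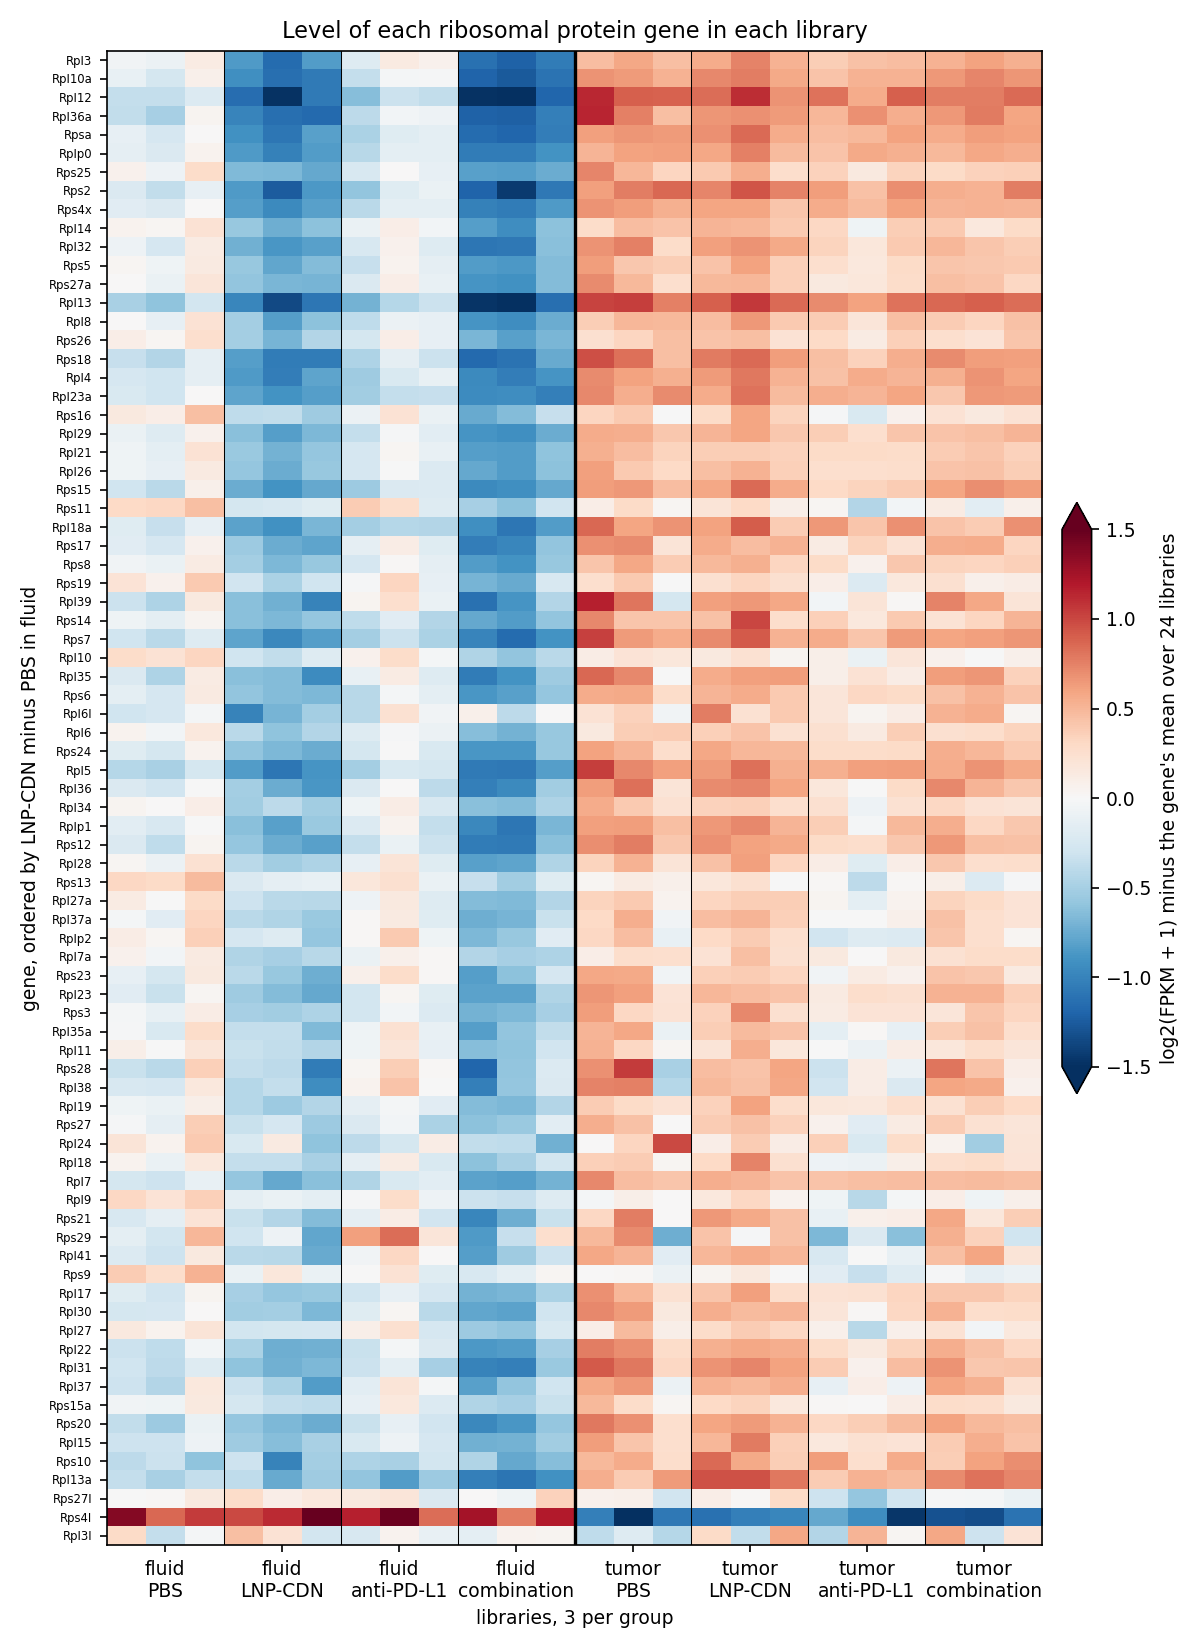
Level of each of the 80 genes (rows, ordered by the difference between LNP-CDN and PBS in fluid) in the 24 libraries (columns, 3 per group); colour is log2(FPKM + 1) minus the gene's mean over all libraries, capped at ±1.5. Fluid columns with LNP-CDN or the combination are blue in nearly every row, tumor columns are mostly red, and Rps4l near the bottom shows the opposite tissue pattern (Rpl3l, not tested in fluid, stands last).

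The 17 members that did not pass the test in this comparison included paralogs, low genes and short genes. Rps27l (chromosome 9, 66946086 to 66949516), the p53-responsive paralog of Rps27, lay at 89.5, 90.7 and 99.4 FPKM with PBS and at 109, 96.3 and 100.2 with LNP-CDN. The groups overlapped and the log2 change was 0.13 ± 0.13 (adjusted p 0.507). Rps27 lay at 185, 169.5 and 242 FPKM with PBS and at 148, 157 and 128 with LNP-CDN. Its groups did not overlap, but the log2 change of -0.45 ± 0.17 had an adjusted p of 0.0777. The difference between both genes was not tested. Rps4l (chromosome 6, 148354656 to 148355598) lay at 10.4, 6.93 and 8.07 FPKM with PBS and at 7.69, 8.50 and 12.4 with LNP-CDN, with a change of 0.15 ± 0.21. Rpl13a, known in human monocytic cells for leaving the ribosome to silence transcripts after interferon gamma, was at 8.40, 7.61 and 8.38 FPKM and at 8.24, 6.16 and 7.32 (-0.15 ± 0.11). Others not called were low or short genes, among them Rps10 (-0.17 ± 0.17) and Rpl38 (-0.46 ± 0.22).

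Members with and without a long pyrimidine run near the start had the same median change. The split takes a run anywhere within 50 bases of a start, so it cannot separate members with a TOP motif from those without. The part of that motif in the fall was not tested. The median log2 change was -0.51 in the 42 members with a run of at least 10 near the start and -0.51 in the 15 tested members without one. Rpl35, with the longest run shown, fell by 0.56 on the log2 scale, Rpl28 by 0.52 and Rpl15 by 0.32. The call of Rpl35 was lost without the filter, with the replicate block and without any 1 library but PBS replicate 2. That of Rpl15 was lost without PBS replicate 3 or LNP-CDN replicate 1 or 2, and that of Rpl28 without PBS replicate 3.

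**Figure D3:**
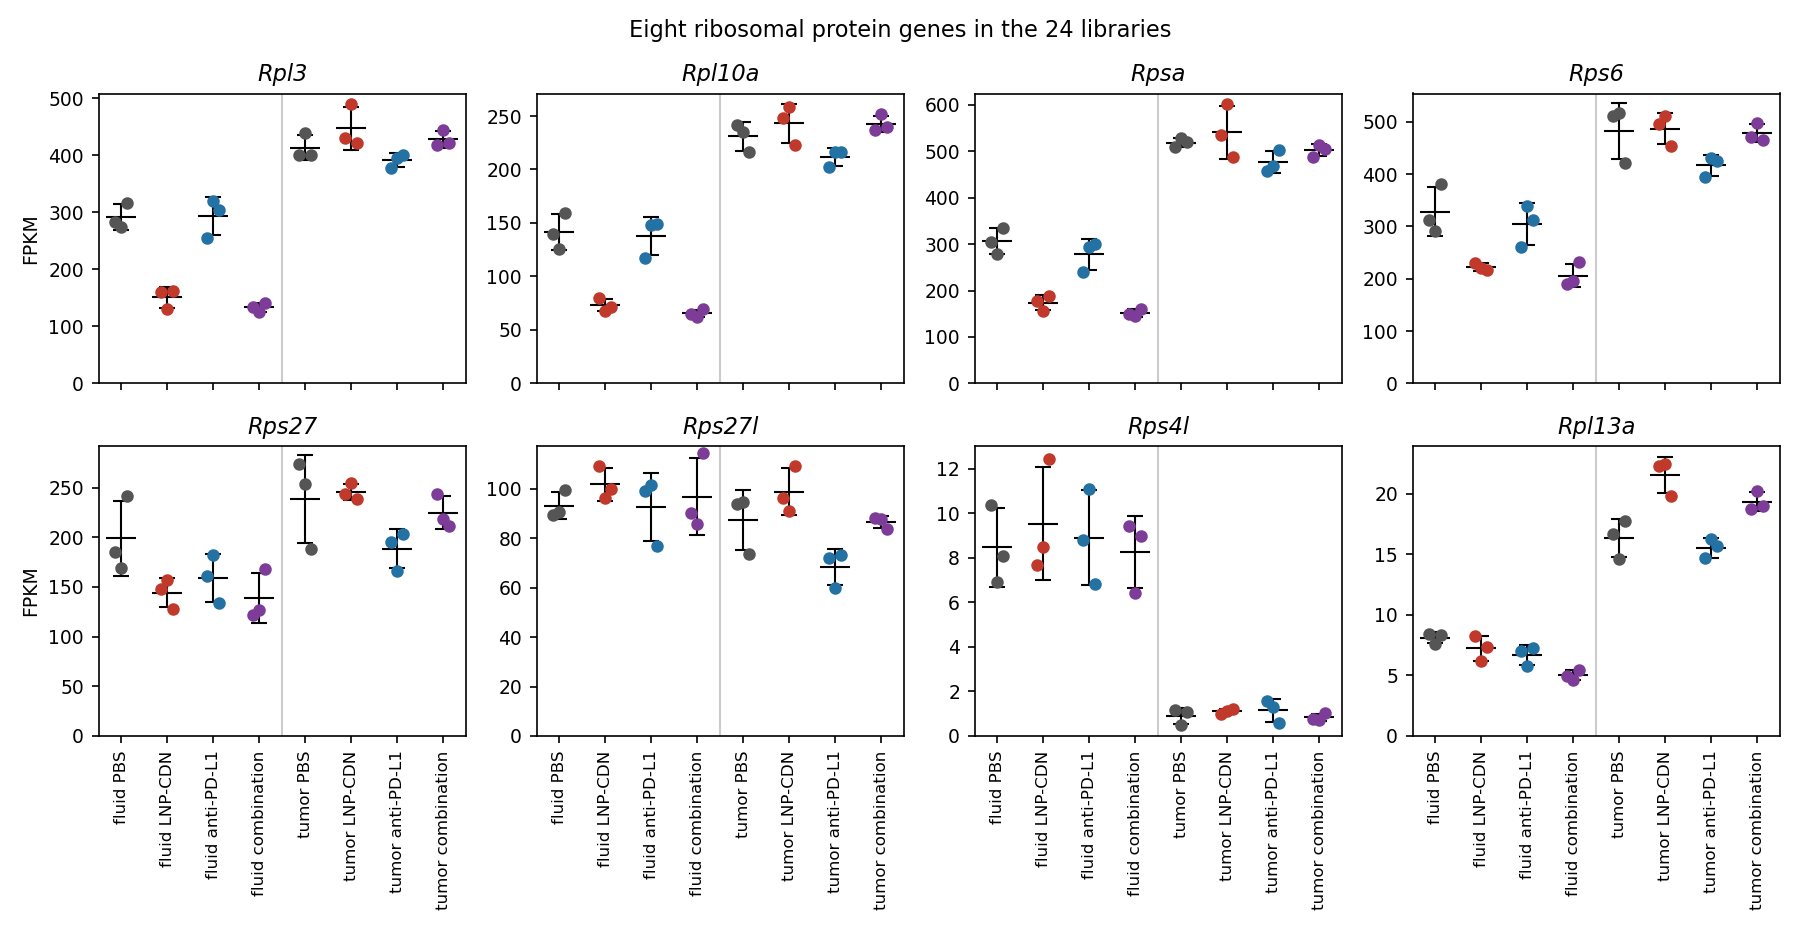
FPKM (y axis, from 0, own scale per panel) of 8 ribosomal protein genes in each tissue and treatment (x axis); points are libraries and black lines the mean ± SD of 3. Rpl3, Rpl10a, Rpsa and Rps6 are lower in fluid after LNP-CDN and the combination, Rps27l stays near 90 to 100 in the fluid means, and Rps4l is about 8 to 10 in fluid and near 1 in tumors.

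Ribosomal proteins whose names lie outside the rule were lower too, with 5 of 8 lower and none higher after LNP-CDN at a median of -0.61. Rack1, a signalling scaffold on the small subunit, went from 151, 145 and 165 FPKM to 96.3, 84.6 and 101 (-0.71 ± 0.10). Rps3a1 (-0.61) and the paralogs Rpl22l1 (-0.87) and Rpl36al (-0.82) also fell (Rpl36al not without PBS replicate 3 or LNP-CDN replicate 3), while Fau (-0.34, adjusted p 0.103) did not pass. Of 7 elongation factors tested 6 fell, among them Eef2 (-0.62 ± 0.12), the translocase, Eef1b2 (-0.68 ± 0.12) and Eef1a1 (-0.44 ± 0.14), which carries aminoacyl-tRNA to the ribosome. The call of Eef1a1 was lost with a pseudocount of 0.1, without the filter, with the replicate block and in all 6 fits that left out 1 library. Of 28 initiation factors 15 fell and 1 rose, with the eIF3 subunits Eif3f (-0.60) and Eif3i (-0.53) lower. Of 16 other TOP messages 8 fell and none rose.

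Genes for making ribosomes gave a mixed count. Of 40 ribosome biogenesis factors 14 fell and none rose at a median of -0.32. Nhp2, a protein of box H/ACA particles, went from 54.6, 55.9 and 54.0 FPKM to 33.4, 31.3 and 31.6 (-0.76 ± 0.08), and Nop16 (-0.80) and the methyltransferase Fbl (-0.48) fell as well. Of 19 RNA polymerase I genes 4 fell, including the largest subunit Polr1a (-0.57), and 1 rose. The mTORC1 and TOP control list gave 1 higher and 2 lower of 17, with Larp1 not past the threshold (0.17 ± 0.09) and the translation repressor Pdcd4 lower (-1.19 ± 0.19). The Myc family gave 2 higher and 2 lower of 8, and Myc itself did not pass (-0.40 ± 0.32, adjusted p 0.383). All 12 interferon-induced translation blockers rose, among them Ifit3 (4.46 ± 0.35) and the kinase of eIF2 alpha, Eif2ak2 (1.00 ± 0.10). Of 77 mitochondrial ribosomal protein genes 9 rose and 2 fell at a median of 0.05.

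**Figure D4:**
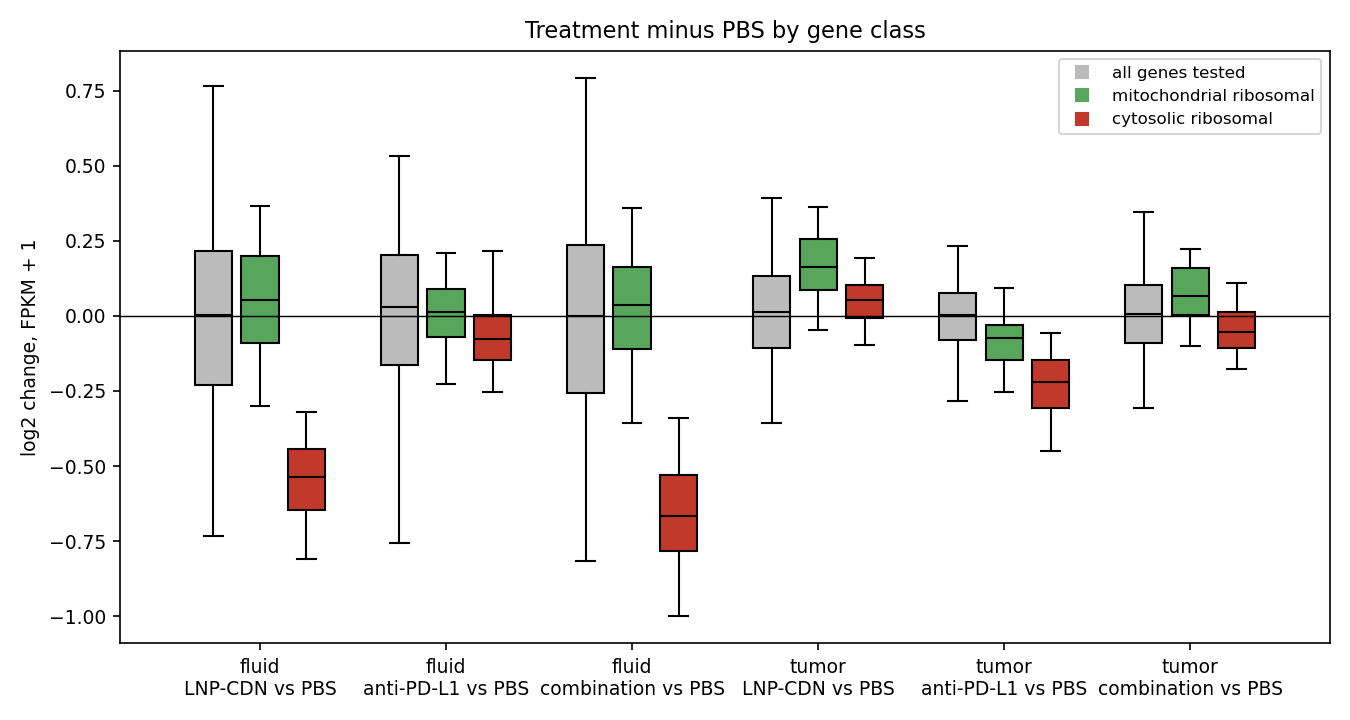
Log2 change of FPKM + 1 from PBS (y axis) for all genes tested (grey), 77 mitochondrial (green) and 79 or 80 cytosolic (red) ribosomal protein genes in each treatment and tissue (x axis); boxes span the quartiles with the median and whiskers the 5th to 95th percentile. The red boxes in fluid have medians of -0.54 with LNP-CDN and -0.67 with the combination while the grey medians lie at 0.00.

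Several other measures differed between these fluid groups, and values with anti-PD-L1 alone are given as well. The fluid libraries with anti-PD-L1 alone also differed in Ddx3y, so sex and treatment cannot be told apart there. Mitochondrially encoded genes took 0.840% to 0.904% of reads with PBS, 0.307% to 0.429% with LNP-CDN and 0.310% to 0.349% with the combination. They took 0.754% to 1.05% with anti-PD-L1 alone, and 10 of 15 fell with LNP-CDN. Cell cycle genes gave 10 lower and 1 higher of 20 with LNP-CDN, and 18 lower and 1 higher with the combination. The 16 neutrophil markers summed to 3958 to 6139 FPKM with PBS, 1069 to 3644 with LNP-CDN and 1107 to 2392 with the combination, with 6 of 14 tested lower after LNP-CDN. The 11 B cell markers summed to 53.9 to 108 FPKM with PBS, 7.91 to 11.97 with LNP-CDN and 10.3 to 39.8 with the combination, and 8 of 9 tested fell with LNP-CDN. The 16 T cell markers went from 55.6 to 62.9 FPKM with PBS to 24.3 to 46.6 with LNP-CDN and 34.9 to 42.9 with the combination, and 4 of 14 fell with LNP-CDN. The 15 macrophage markers summed to 6190 to 6456 FPKM with PBS, 6699 to 8899 with LNP-CDN and 6533 to 6843 with the combination, with 6 higher and 2 lower after LNP-CDN. The 5 erythroid markers found summed to 20.2 to 60.7 FPKM with PBS and to 0.355 to 1.08 with LNP-CDN. Their sum was 0.139 to 0.627 with the combination and 17.3 to 44.8 with anti-PD-L1 alone. No marker of the neutrophil, B cell, T cell or macrophage list was at 0 in these groups. With LNP-CDN the fibroblast list gave 1 higher of 10, the epithelial list 1 lower of 6 and the skeletal muscle list 1 higher of 3. With anti-PD-L1 alone the neutrophil sum was 839 to 1356 FPKM with 12 of 14 markers lower, the B cell sum 10.5 to 12.8 with 9 of 9 lower, and the T cell sum 17.0 to 40.7 with 7 of 14 lower. In those libraries 13 of 20 cell cycle genes rose and none fell, 1 of 15 mitochondrially encoded genes rose, and the macrophage list gave 2 lower and none higher of 15. The part of these cell types, the cell cycle and mitochondrial reads in the family's fall was not tested.

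With the combination in fluid, 70 of 79 members fell against PBS and none rose, where 30.1% of all genes passed, 14.4% lower and 15.6% higher. The members' median log2 change was -0.67, a fall of 37.0%. Rpl3 lay at 134, 126 and 141 FPKM (-1.12 ± 0.12, adjusted p 0.000142), Rpl12 at 51.9, 48.3 and 63.3 (-1.11 ± 0.14), Rpl10a at 64.8, 62.1 and 69.3 (-1.09 ± 0.12) and Rpsa at 149, 146 and 161 (-1.002 ± 0.11). No library of the combination reached a PBS library for these genes. Rps2 (-0.9999 ± 0.16), Rplp0 (-0.90 ± 0.12) and Rps6 (-0.67 ± 0.13) fell as well, and Rps27 passed here (-0.51 ± 0.17, adjusted p 0.0429). The call of Rps27 was lost without the filter, with the replicate block, and without PBS replicate 1 or 3 or combination replicate 1 or 2. The 9 members not called were Rps27l (0.04 ± 0.13), Rps4l (-0.03 ± 0.21), Rps10 (-0.18 ± 0.17), Rps29 (-0.34 ± 0.31), Rpl37, Rpl38, Rpl41, Rps28 and Rpl6l. Eef2 (-0.72 ± 0.12) and Nhp2 (-0.82 ± 0.08) were again lower, and Ifit3 (4.40 ± 0.35) and Eif2ak2 (1.06 ± 0.10) higher. This comparison shares its PBS libraries with that of LNP-CDN.

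Against anti-PD-L1 alone, the combination had 72 of 79 members lower and none higher, where 37.3% of all genes passed, 18.9% lower and 18.4% higher. These groups also differed in Ddx3y, at 21.6 to 23.6 FPKM with anti-PD-L1 alone and at most 0.0111 with the combination, so treatment and sex cannot be told apart here. The median log2 change of the members was -0.59. Rpl3 (-1.12 ± 0.12), Rpl10a (-1.06 ± 0.12), Rpl36a (-0.98 ± 0.14) and Rpl12 (-0.97 ± 0.14) had the largest falls. The 7 not called were Rpl24, Rpl6l, Rps10, Rps27, Rps27l, Rps4l and Rps9, the last at -0.13 ± 0.13. Against LNP-CDN alone, no member passed for the combination, and 0% of all genes did. The 79 members had a median of -0.13 here, and limma-voom on recovered reads also called none. Of them 2 had an unadjusted p under 0.05, as had 761 of the 13518 genes tested. Rpl13a, with no overlap at 4.94, 4.63 and 5.45 FPKM against the LNP-CDN values above, had the smallest adjusted p of the members, 0.613, at a log2 change of -0.45 ± 0.11.

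Anti-PD-L1 alone gave no call among the members in fluid, where 13% of all genes passed, 5.47% higher and 7.49% lower. Their median log2 change was -0.08, with 58 below 0 and 21 above, and limma-voom called none. Of these 79 members 7 had an unadjusted p under 0.05, as had 4069 of the 13518 genes tested. Rps9, a small-subunit protein that aids decoding accuracy, lay at 329, 304 and 362 FPKM with PBS and at 251, 293 and 222 with anti-PD-L1, without overlap. Its change of -0.38 ± 0.13 had an adjusted p of 0.0772. Rps29, among the shortest members, went the other way, at 127, 115 and 198 FPKM with PBS and 215, 252 and 159 with anti-PD-L1 (0.52 ± 0.31, adjusted p 0.284). The groups of Rps29 overlapped.

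In tumors 1 member passed the test in the comparisons between treatments. With LNP-CDN 1 of 80 members rose and none fell, where 3.36% of the 13173 genes tested passed, 1.89% higher and 1.47% lower, so the share called was near that of all genes. That member was Rpl13a (chromosome 7, 45125558 to 45128761), at 16.6, 14.7 and 17.8 FPKM with PBS and 22.3, 22.4 and 19.8 with LNP-CDN. The groups did not overlap, and the log2 change was 0.38 ± 0.08 with an adjusted p of 0.0305. This call was lost with no filter on low values, with a replicate block, with only the 6 libraries compared, and without any 1 of 5 of those libraries. With the combination Rpl13a lay at 18.8, 20.2 and 19.0 FPKM and did not pass (0.23 ± 0.08, adjusted p 0.194). The median log2 change of the members was 0.05 with LNP-CDN and -0.05 with the combination, and Rpl3 changed by 0.11 ± 0.08 with LNP-CDN. In the same tumors 5 of 12 interferon-induced translation blockers rose with LNP-CDN and 7 of 12 with the combination, none of 8 elongation factors passed in either, and 3 of 40 biogenesis factors rose with LNP-CDN.

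No member passed for the combination against PBS in tumors, where 1.18% of all genes passed, 0.881% higher and 0.304% lower. There 1 member and 1853 of the 13173 genes tested had an unadjusted p under 0.05. None passed for the combination against anti-PD-L1 either, where 1.55% of all genes passed, 1.16% higher and 0.387% lower. Here 75 of 80 members were above 0, and the median was 0.16 against 0.01 for all genes. An unadjusted p under 0.05 was found for 15 members and for 2085 of the 13173 genes tested. These groups also differed in Ddx3y, so treatment and sex cannot be told apart here. Against LNP-CDN alone none passed, and 0% of all genes did, with a median of -0.09 over the members. Of the members 0 had an unadjusted p under 0.05, against 680 of the 13173 genes tested. The limma-voom test called no member in these 3 comparisons.

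Anti-PD-L1 in tumors gave no call at all, with 0% of the 13173 genes past the threshold, while 821 of them had an unadjusted p under 0.05. Of 80 members 77 were below 0, the median log2 change was -0.22 against 0.00 for all genes, and 31 had an unadjusted p under 0.05, with none called by limma-voom. Sex differed in part between these groups, since Ddx3y was present in all anti-PD-L1 tumors but only in replicate 1 of the PBS tumors. The short members had the largest differences. Rps29 lay at 196, 230.0 and 84.0 FPKM with PBS and at 87.6, 121 and 90.5 with anti-PD-L1 (-0.66 ± 0.34, adjusted p 0.793). PBS replicate 3 was the low one of its group, and for Rps29 as for Rps28 (37.5 FPKM) and Rpl39 (49.4 FPKM) it lay below all 3 anti-PD-L1 libraries. Rps28 (-0.51 ± 0.32) and Rpl39 (-0.51 ± 0.28) did not pass, nor did the long Rpl3 (-0.08 ± 0.08). Rps27l had no overlap, at 94.0, 94.8 and 73.6 FPKM against 72.0, 59.9 and 73.4, and did not pass (-0.35 ± 0.11, adjusted p 0.740).

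Across the 74 members with a coding length and a mean of at least 20 FPKM, the log2 change with anti-PD-L1 in tumors varied with coding length, with Pearson's r of 0.78 on the log2 of length, a description over genes that share the same libraries. In the 37 members with a coding length of at most 450 bases the median change was -0.31, and in the other 37 it was -0.19. Of genes outside the family, 272 short ones had a median of -0.15 and 2322 long ones of 0.01. In fluid the same treatment gave r = -0.50, and LNP-CDN gave r = -0.42 in fluid and -0.32 in tumors. The fall with LNP-CDN in fluid was present in both length classes, at medians of -0.51 in the short and -0.58 in the long members. Per library the level of short minus long members lay between -0.27 and -0.15 with anti-PD-L1 in tumors and between -0.31 and 0.11 with PBS in tumors, whose lowest value was again replicate 3. The part of coding length in these changes was not tested.

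**Figure D5:**
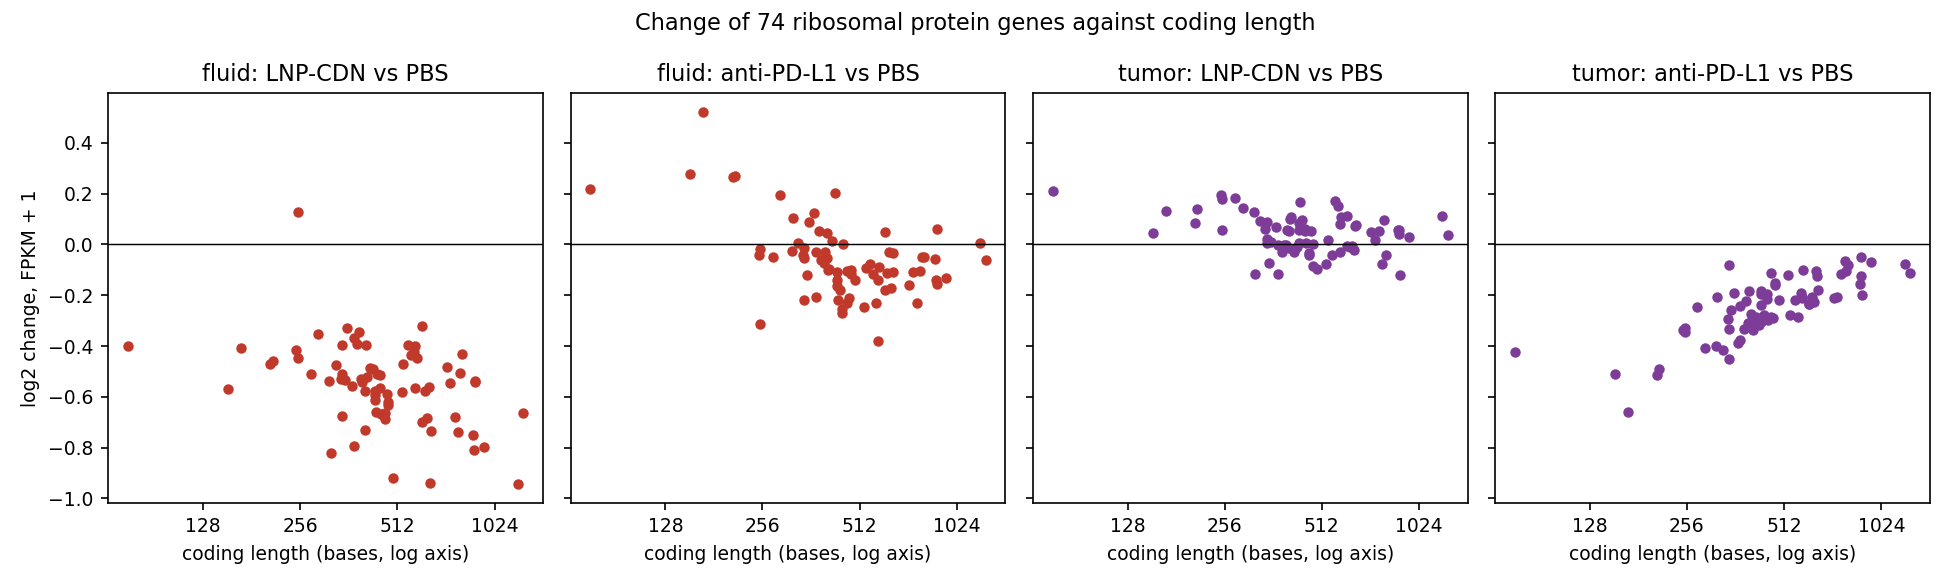
Log2 change of FPKM + 1 from PBS (y axis) against coding length in bases (x axis, log scale) for 74 ribosomal protein genes with a mean of at least 20 FPKM; each point is a gene and each panel a treatment and tissue. With anti-PD-L1 in tumors the points climb with length (r = 0.78), and with LNP-CDN in fluid both short and long genes lie near -0.5, with Rps27l alone above 0.

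Tumors and fluid were compared within each treatment, on the authors' scaling of all 24 libraries together. With PBS 55 of 80 members were higher in tumors and 4 lower, where 74.8% of the 15222 genes tested passed, 37% higher and 37.9% lower. The median log2 difference was 0.47. With LNP-CDN 74 were higher and 1 lower at a median of 1.10, where 76.3% of all genes passed, 37.5% higher and 38.8% lower. With the combination 74 were higher and 1 lower at a median of 1.11 (76.4% of all genes passed, 37.2% higher and 39.2% lower), and with anti-PD-L1 44 were higher and 5 lower at a median of 0.35 (70.7% of all genes passed, 34.6% higher and 36.1% lower). Scaling by total reads moved the median of all genes up by 0.28 to 0.31 on the log2 scale and upper-quartile scaling by 0.14 to 0.16. With total-read scaling 71 members were higher and 1 lower with PBS, where 7474 of the 15222 genes tested were higher and 4352 lower. With anti-PD-L1 this scaling gave 62 members higher and 1 lower, where 7468 of all genes were higher and 3922 lower.

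Rpl13, a large-subunit protein, was furthest above fluid with PBS, at 738, 753 and 620 FPKM in tumors against 260, 240 and 303 in fluid (log2 difference 1.39 ± 0.13, adjusted p 7.03e-09). Rpl12 (1.28 ± 0.13), Rpl5 (1.18 ± 0.11) and Rpl36a (1.06 ± 0.14) followed, and Rpl3 was higher by 0.51 ± 0.10. With LNP-CDN the differences were 2.07 ± 0.13 for Rpl13 and 2.10 ± 0.13 for Rpl12, with the combination 2.24 ± 0.13 and 2.22 ± 0.13, and with anti-PD-L1 1.20 ± 0.13 for both. Rps4l went against the rest in every treatment, at 1.15, 0.496 and 1.08 FPKM in PBS tumors against 10.4, 6.93 and 8.07 in PBS fluid. Its log2 difference was -2.31 ± 0.21 with PBS, -2.29 ± 0.21 with LNP-CDN, -2.21 ± 0.21 with anti-PD-L1 and -2.32 ± 0.21 with the combination. The other members lower in PBS tumors were Rps9 (-0.41 ± 0.10), Rps13 (-0.28 ± 0.11) and Rpl9 (-0.27 ± 0.10). With total-read scaling Rps13 and Rpl9 turned to 0.08 and 0.10 and Rps9 was no longer past the threshold. The calls of Rps13 and Rpl9 were also lost with upper-quartile scaling, without PBS fluid replicate 3 and without PBS tumor replicate 1. That of Rps13 was lost without the filter and without PBS tumor replicate 3 too, and that of Rpl9 without PBS fluid replicate 1. With anti-PD-L1 Rps29 (-1.05 ± 0.34, adjusted p 0.0104) and Rps27l (-0.43 ± 0.12, adjusted p 0.00492) were lower in tumors, and neither passed with total-read scaling, nor did Rps27l with upper-quartile scaling. Relative to the median log2 level of the family in each group, the members that varied most over the 8 group means were Rps4l (SD 1.68), Rps27l (0.593), Rpl3l (0.544), Rps9 (0.535) and Rpl12 (0.501).

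The effect of LNP-CDN was then compared between tissues by an interaction term in the fit of all 24 libraries. For 47 of 80 members the change from PBS was higher in tumors than in fluid and for none lower, where 15.3% of all genes passed, 7.86% higher and 7.4% lower. The median difference of the members was 0.60. Rpl3 led with 1.06 ± 0.14 (adjusted p 0.000102), followed by Rpl10a (1.01 ± 0.14), Rpsa (0.87 ± 0.14) and the low-level pseudogene Rpl6l (0.84 ± 0.27, adjusted p 0.0391). The call of Rpl6l was lost without the filter, with limma-voom, with the replicate block and in 9 of 12 fits that left out 1 library. Rpl10a lay at 242, 235 and 216 FPKM in PBS tumors and at 248, 258 and 223 in LNP-CDN tumors, where in fluid it had fallen. Without PBS fluid replicate 3 the count was 30. For the combination 48 members had a higher change in tumors and none a lower one, where 15% of all genes passed, 7.86% higher and 7.17% lower. Rpl3 (1.17 ± 0.14), Rpl10a (1.17 ± 0.14), Rpsa (0.96 ± 0.14) and Rpl12 (0.94 ± 0.19) led. For anti-PD-L1 no member passed, where 5.31% of all genes passed, 3.58% higher and 1.73% lower. Here 6 members and 3098 of the 15222 genes tested had an unadjusted p under 0.05, and limma-voom called none. The fluid groups used here also differed in Ddx3y, so sex and treatment cannot be told apart. Rps29 had a difference of -1.18 ± 0.49 there, with an adjusted p of 0.174.

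For LNP-CDN, 25 of 40 biogenesis factors, 14 of 28 initiation factors, 5 of 8 elongation factors and 6 of 19 RNA polymerase I genes had a higher change in tumors, and none of them a lower one. Of 77 mitochondrial ribosomal protein genes 3 were higher and 1 lower. Mitochondrially encoded genes gave 11 of 15 higher, and cell cycle genes 14 of 20, for which the part in the family's difference was not tested.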

How the data were processed

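Poly-A RNA of 24 libraries was sequenced without strand information (NEBNext Ultra, per the labels' protocols), so antisense and overlapping genes cannot be told apart. The authors deposited 1 FPKM value per gene and library for 54505 rows. Tools named in the submitters' processing notes are fastp, STAR, featureCounts and DESeq2, with the build mm9 and no versions; the coordinates of 53437 of 54383 gene IDs, and of 78 of 80 members, equal those of GENCODE M21 on GRCm38. FPKM times gene length and 1 factor per library gave whole reads within 0.01 for 99.92% to 99.97% of values, and the factors equal median-of-ratios factors over all libraries within a ratio of 0.999 to 1.0006. For 21 genes, none of them members, values were not whole reads; these were left out of tests.

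Groups were taken from the titles. Tests used limma 3.58.1 in R 4.3.3 on log2(FPKM + 1) with a variance trend, 1 fit per tissue over 12 libraries and 1 fit over all 24 for tissue differences and interactions, on genes reaching 1 FPKM in 3 or more libraries of the fit. P-values are two-sided and Benjamini-Hochberg adjusted over all genes tested; a gene was called under 0.05. Exact permutation of 3 against 3 libraries cannot pass that threshold. Changes of FPKM + 1 understate those of low genes. The scripts were tested on simulated data. Recovered counts differed between replicates beyond sampling noise, with a chi-square of 4.90 to 95.6 for each degree of freedom. Promoter windows are RefSeq's, GRCm38.p6, for 58 members. Python 3.11.15, pandas 2.3.3 and matplotlib 3.10.9 were used.

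The members and lists were chosen with earlier results of these data known. Named are, per comparison, up to 4 members with the largest rise and fall past the threshold, up to 3 furthest above and below the family median, 21 set genes, the 5 highest and lowest, the 5 most variable and list genes by p; the text gives a part of them. Alternatives were a pseudocount of 0.1, no filter, other scalings (total reads, upper quartile, median-of-ratios without the members), limma-voom on recovered reads, a replicate block, a fit of the compared libraries alone, leaving out each library, and shares of the FPKM sum or of nuclear reads.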

Additional observations from a re-analysis of the deposited data

Results flagged for a closer look

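Effects of treatment that differed between tumors and fluid by a test of the interaction were found for 47 members with LNP-CDN and for 48 with the combination, each on the log2 scale higher in tumors. With LNP-CDN the differences between both effects were 1.06 for Rpl3, 1.01 for Rpl10a, 0.87 for Rpsa and 0.84 for Rpl6l. With the combination they were 1.17 for Rpl3, 1.17 for Rpl10a, 0.96 for Rpsa and 0.94 for Rpl12. Rpl6l lay at 3.14 FPKM or less in every library, and its call was lost without the filter on low values, under the replicate block and under limma-voom. Groups of 3 libraries were not searched for single libraries that stand apart.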

How the results depend on the processing

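Of the alternative values for single genes, 1540 kept their direction and side of the threshold, 81 lost their call, 6 gained one and 7 changed sign. The counts of members past the threshold stayed within 1.5 times under every alternative for LNP-CDN or the combination against PBS in fluid, the combination against anti-PD-L1 in fluid, the 4 tissue differences, and the difference of the combination's effect between tissues. With anti-PD-L1 in fluid 1 member passed with total-read scaling, and 0 to 2 passed when 1 library was left out, with 2 without anti-PD-L1 replicate 2. With LNP-CDN in tumors 0 members passed with no filter, with the replicate block and with only the libraries compared, and 0 to 1 when 1 library was left out. For the difference of effects between tissues, leaving out 1 library gave 30 to 50 members with LNP-CDN (30 without PBS fluid replicate 3) and 0 to 6 with anti-PD-L1 (6 without PBS tumor replicate 3). The cause was not tested.

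As a share of the FPKM sum, the family took 5.08% (PBS), 3.29% (LNP-CDN), 4.50% (anti-PD-L1) and 2.97% (combination) in fluid and 10.6%, 9.75%, 7.88% and 10.3% in tumors, since FPKM weights short genes more. By the share of the FPKM sum the anti-PD-L1 tumors (5.54% to 9.49%) overlapped the LNP-CDN tumors (8.81% to 10.6%). They lay below the tumors with the combination (10.2% to 10.4%). The lowest anti-PD-L1 tumor value also lay below the highest PBS fluid value, 5.78%. Of nuclear reads the family took 5.23% in tumors with the combination. In the tissue difference with PBS, total-read scaling turned Rps13 to 0.085 and Rpl9 to 0.10. Left-out libraries moved 4 uncalled changes across 0 in fluid: with LNP-CDN Rps4l from -0.042 to 0.29 and Rps10 from -0.32 to 0.030, and with the combination Rps27l from -0.081 to 0.13 and Rps4l from -0.15 to 0.12.

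Same-numbered libraries correlated above 0.1 in 3 of 12 fluid and tumor pairs, 4 of 18 pairs within fluid and 1 of 18 within tumors. Libraries of unlike number were not compared, so these correlations cannot decide whether the numbers pair the samples. In the PBS group Ddx3y was 3.55 FPKM in tumor replicate 1 and at most 0.0253 in the 3 fluid libraries. By this marker PBS tumor replicate 1 did not share a mouse with a PBS fluid library. With the replicate block 53 members passed with LNP-CDN in fluid and 66 with the combination. Depth limits Rpl3l, Rpl6l and Rpl24, which lie near 1 FPKM.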
